A study of Mus musculus with 4 samples.

Results

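Levels of 10 genes of adipocyte lipid storage (Adipoq, Plin1, Cidec, Gpd1, Thrsp, Agpat2, Fabp4, Lpl, Cfd and Car3) were measured in mouse lung sections. They were taken by symbol, as 10 of the 32285 genes in each count table, and all 10 were counted in all 4 sections. The sections came from 2 vaped (V) and 2 non-vaped (NV) C57BL/6J mice, 1 male and 1 female per group. V mice inhaled aerosol of Peach Ice vape juice from JUUL pens in a whole-body chamber, during 9 weeks, with sessions of 4 h on 5 days of each week, beginning at about 8 weeks of age. NV mice of the same strain were not exposed to the aerosol. The tissue, labelled as upper pulmonary branches, was placed as cryosections on Visium slides, on which each spot captures the mRNA of the several cells above it and tags each molecule with a unique molecular identifier (UMI). Each mouse gave 1 section, so a group is a model of vaping with 2 animals.

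A white adipocyte keeps triglyceride in a single large lipid droplet, whereas a brown adipocyte keeps many small droplets and burns their fatty acids for heat through the uncoupling protein Ucp1. Fatty acids reach the cell from plasma lipoproteins or are made in it, are joined to a glycerol backbone, and are stored in droplets covered by coat proteins. In the lung, adipocytes are found in the fat around the large airways and vessels at the hilum, while alveolar cells, capillaries and macrophages take up and handle lipid for other purposes.

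Reporter genes that are not among the 10 were used to find adipocytes: Ucp1, Cidea, Elovl3, Otop1, Slc36a2, Adrb3, Acvr1c, Adig, Retn and Lep. Spots with at least 10 reporter UMIs were called adipocyte-rich. Spots without a reporter UMI and with at least 50% of the overall level of alveolar parenchyma markers were called reporter-free parenchyma. The male NV section held 842 spots (30 adipocyte-rich, 203 reporter-free), the female NV section 473 spots (164 and 28), the male V section 1565 spots (0 and 1138) and the female V section 2053 spots (1152 and 47). The reporter limit is a count of UMIs, so deep spots reach it more easily. Median UMIs per adipocyte-rich spot were 9813.5 in the male NV, 21132 in the female NV and 20720.5 in the female V section. Of these spots 5, 79 and 735, in the same order, also met the parenchyma marker limit, so the class is not adipocytes alone. Totals were between 6957392 and 34308556 UMIs per section. The same Visium spot barcode occurred in 277 to 1167 spots of each pair of sections, since slides share one barcode list.

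The male V section stood apart in the tissue it held. Its reporters summed to 47.7 UMIs per 1000000 of the section (CPM), against 211 CPM in the male NV section, 1417 CPM in the female NV section and 2561 CPM in the female V section. Of its 567 reporter UMIs, most came from Slc36a2 (34.8 CPM) and Adrb3 (9.09 CPM), Elovl3 and Otop1 were at 0, and Ucp1 was at 0.337 CPM. Cardiac muscle markers were at 18.2 CPM in the male V section and between 3673 and 7015 CPM in the other sections. Skeletal muscle markers were at 4.8 CPM against 202 to 351 CPM, mostly Ckm, which heart muscle also makes. Mesothelium markers were at 76.6 CPM in the male V section and 92.5 to 232 CPM elsewhere. The part that the cut of the tissue has in the levels below was not tested, and fewer adipocytes in a section cannot be told apart from less RNA per adipocyte.

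All 10 genes were lowest in the male V section, and the other 3 sections were ordered with the male NV section below both females for every gene. Adipoq, the adipocyte hormone adiponectin (chr16:23146536-23158028, GRCm38), was at 95.03 CPM in the male NV section, 711 CPM in the female NV section, 1.60 CPM in the male V section and 441 CPM in the female V section. The 19 Adipoq UMIs of the male V section gave a 95% Poisson interval of 0.963 to 2.50 CPM, which covers counting error only. Plin1, the coat protein that guards the droplet against lipases (chr7:79720218-79732903), was at 44.4, 224, 0.505 and 186 CPM in the same order of sections. Cidec, which fuses small droplets into large ones (chr6:113424634-113435760), was at 73.6, 513, 13.0 and 382 CPM. The V and NV sections overlapped for each of these genes, because the female V section lay between the NV mice and the male V section below them.

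**Figure D1:**
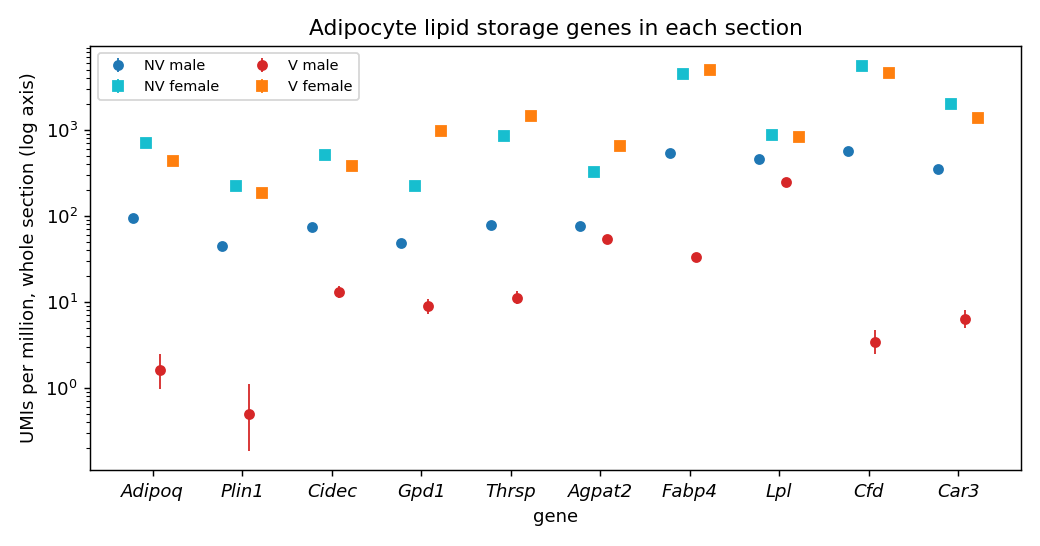
Level of each gene in each whole section, in CPM on a log axis, with exact 95% Poisson intervals as bars. Circles are males and squares are females. The male V section is lowest for all 10 genes, at 0.505 CPM for Plin1 and 245 CPM for Lpl, and the females are above the male NV section.

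The genes of synthesis differed from these in the position of the female V section. Gpd1, the glycerol-3-phosphate dehydrogenase that supplies the glycerol backbone (chr15:99717515-99725005), was at 48.9 CPM in the male NV section, 224 CPM in the female NV section, 8.92 CPM in the male V section and 972 CPM in the female V section. Thrsp, a nuclear factor that promotes fatty acid synthesis (chr7:97412938-97417730), was at 77.7, 854, 11.2 and 1440 CPM. Agpat2, the acyltransferase that makes phosphatidic acid on the way to triglyceride (chr2:26593057-26604417), was at 77.3, 326, 54.5 and 653 CPM. For these 3 genes the female V section was the highest section and the male V section the lowest.

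Fabp4, the fatty acid chaperone of adipocytes, macrophages and capillaries (chr3:10204088-10208576), was at 538 CPM in the male NV section, 4499 CPM in the female NV section, 32.9 CPM in the male V section and 4964 CPM in the female V section. Lpl, the lipoprotein lipase that releases fatty acids from plasma lipoproteins (chr8:68880491-68907448), was at 462, 880, 245 and 818 CPM and had the narrowest spread of the 10. Relative to the male V section, Lpl was 1.88-fold higher in the male NV section and 3.58-fold higher in the female NV section, whereas Adipoq was 59.4-fold and 445-fold higher.

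Cfd, the complement factor D that adipocytes secrete as adipsin (chr10:79890853-79892655), was at 576, 5605, 3.45 and 4590 CPM. Car3, a carbonic anhydrase abundant in fat and slow muscle (chr3:14863512-14872523), was at 351, 2016, 6.40 and 1394 CPM. Both followed Adipoq in having their highest level in the female NV section. Levels are compared here between sections for 1 gene at a time, since the counts carry no correction for transcript length.

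The RefSeq table of GRCm38.p6 gave sequences just before the transcription start for 6 of the 10 genes (Adipoq, Plin1, Cidec, Thrsp, Agpat2 and Cfd). Shown are the 4 of them whose level in the male V section was at most 1.80% of that in adipocyte-rich spots (Adipoq, Plin1, Thrsp, Cfd) and Agpat2, which kept at least 7.56%, as described further on. Capitals mark every match, on either strand, to CCAAT, to TATAAA, to the C/EBP motif TTGCNNAA or to the nuclear receptor half-site AGGTCA, within the 250 bases before the RefSeq start. For Plin1 and Thrsp this start differs from the GENCODE positions given above, which end at 79732903 and 97417730. Their windows thus lie partly inside those positions.
Adipoq (chr16:23146286-23146535, plus strand): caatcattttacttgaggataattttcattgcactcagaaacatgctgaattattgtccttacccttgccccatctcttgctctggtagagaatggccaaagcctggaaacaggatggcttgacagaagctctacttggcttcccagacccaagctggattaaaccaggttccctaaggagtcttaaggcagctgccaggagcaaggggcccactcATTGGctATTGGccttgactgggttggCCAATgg
Plin1 (chr7:79732777-79733026, minus strand): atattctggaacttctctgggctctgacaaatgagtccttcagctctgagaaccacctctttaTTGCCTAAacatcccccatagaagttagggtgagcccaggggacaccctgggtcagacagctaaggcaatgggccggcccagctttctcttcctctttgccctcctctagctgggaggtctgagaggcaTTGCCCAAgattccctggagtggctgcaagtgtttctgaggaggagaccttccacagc
Thrsp (chr7:97417551-97417800, minus strand): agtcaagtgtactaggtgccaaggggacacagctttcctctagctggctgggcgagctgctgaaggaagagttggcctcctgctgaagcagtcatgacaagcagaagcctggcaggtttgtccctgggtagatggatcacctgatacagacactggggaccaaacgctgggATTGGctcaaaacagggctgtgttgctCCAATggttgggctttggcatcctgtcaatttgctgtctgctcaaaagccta
Cfd (chr10:79890603-79890852, plus strand): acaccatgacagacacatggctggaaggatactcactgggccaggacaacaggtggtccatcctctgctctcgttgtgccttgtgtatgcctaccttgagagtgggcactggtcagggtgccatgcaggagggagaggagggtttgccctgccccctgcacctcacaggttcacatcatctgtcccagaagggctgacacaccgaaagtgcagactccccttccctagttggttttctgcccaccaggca
Agpat2 (chr2:26604418-26604667, minus strand): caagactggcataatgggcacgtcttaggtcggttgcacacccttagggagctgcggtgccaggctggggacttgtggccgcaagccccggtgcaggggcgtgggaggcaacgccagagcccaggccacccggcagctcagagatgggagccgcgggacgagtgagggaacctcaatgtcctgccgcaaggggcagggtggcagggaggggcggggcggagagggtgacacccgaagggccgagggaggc
CCAAT matched 3 times for Adipoq and 2 times for Thrsp, so 2 of 6 genes held it, against 33.8% of the 32851 RefSeq promoters of the same length. TTGCNNAA matched 2 times for Plin1 and 1 time in 1 of the 2 Cidec promoters, against 9.56% of all promoters. TATAAA and AGGTCA, held by 12.4% and 14.0% of all promoters, matched none of the 6 genes. A match is a description of letters in this window.

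The first comparison asked whether vaping changed the genes over the whole section. None of the 10 passed the test (edgeR quasi-likelihood, adjusted p = 0.999604 for each), with a background of 0% of 14570 genes called and 284 genes at an unadjusted p under 0.05. DESeq2's Wald test called 8 genes. In simulated sums the edgeR test recovered 21.5% of genes given a log2 fold change of 2 in size, so most such changes would be missed. No gene of the 10 lay above or below both NV sections in both V sections, whereas 12.6% of all tested genes were above and 14.4% below. The log2 fold change, V over NV, was 1.93 ± 2.03 (SE, n = 2 per group) for Gpd1 and -0.78 ± 2.25 for Adipoq. It was 0.88 ± 1.36 for Agpat2 and -0.30 ± 0.75 for Lpl. With the replicate number, which follows sex, as a block, Gpd1 turned to -0.17 and Adipoq was at -3.21. The median over the 10 genes was -0.32, beside 0.03 over all genes.

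For Adipoq and Gpd1 the spread within each group was close to or above the mean. Adipoq averaged 403 ± 436 CPM (SD, n = 2) in NV and 221 ± 311 CPM in V sections, and Gpd1 averaged 136 ± 124 CPM and 491 ± 681 CPM. Without the female V section, 3 of the 10 genes were called lower in the remaining male V section, with log2 fold changes of -8.16 for Plin1 (edgeR adjusted p = 0.0339), -7.68 for Car3 (edgeR adjusted p = 0.0388) and -9.95 for Cfd (edgeR adjusted p = 0.0485), where 4.38% of 14831 genes were called and 3.74% were called lower. That fit assumes that the lone male V section varies like the NV mice. Without the male V section, 0.0994% of 15083 genes were called and none of the 10.

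The same question was put to reporter-free parenchyma alone. Again 0% of 9910 genes were called, with 226 at an unadjusted p under 0.05 in the edgeR test and 1 gene called by DESeq2, and none of the 10 passed (edgeR adjusted p = 0.9997). In simulated sums this edgeR test recovered 0% of genes given a log2 fold change of 2 in size, so it cannot show that levels were equal. Lpl was at 305 CPM in the male NV section, 354 CPM in the female NV section, 247 CPM in the male V section and 322 CPM in the female V section, a log2 fold change of -0.26 ± 0.29 (SE, n = 2 per group). Agpat2 was at 70.6, 67.4, 54.4 and 337 CPM, with 1.16 ± 0.85, and Cidec at 42.3, 236, 13.9 and 102 CPM, with -1.73 ± 1.25. By these values Lpl was the gene of the 10 with the most even parenchymal level. The values of the female NV and V sections rest on 21 and 22 UMIs for Lpl, 4 and 23 for Agpat2, and 14 and 7 for Cidec. The female reporter-free spots were few and shallow, with a median of 1492 UMIs per spot in the female NV section and 1137 in the female V section, against 7448 in the male NV section and 5584 in the male V section.

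The next comparison asked which of the genes belonged to adipocyte-rich spots. All 10 rose in adipocyte-rich over reporter-free spots of the same section (edgeR with section as a block, 3 sections), where 5.07% of 10830 genes were called, 4.93% higher and 0.139% lower. The log2 fold change was 3.36 ± 0.52 (SE, edgeR adjusted p = 0.0078) for Car3, 3.05 ± 0.39 (edgeR adjusted p = 0.0036) for Cidec and 2.95 ± 0.63 (edgeR adjusted p = 0.0326) for Adipoq. At the other end stood Lpl with 2.20 ± 0.20 (edgeR adjusted p = 0.0015) and Agpat2 with 2.21 ± 0.28 (edgeR adjusted p = 0.0032). The median of the 10 was 2.88, beside 0.09 over all genes. With any 1 of the 3 sections left out, no gene at all was called, although all 10 log2 fold changes stayed above 0, and the lowest adjusted p of the 10 was 0.195 by edgeR. With at least 20 reporter UMIs in place of 10, which left 2 sections, no gene was called either. Adipocyte-rich spots also held cardiac muscle markers, at 14117 CPM in the male NV, 9079 CPM in the female NV and 4068 CPM in the female V section. In all parenchyma spots of these sections the markers were at 2938, 2099 and 1768 CPM. The part of heart muscle in the rise of the 10 genes was not tested.

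In adipocyte-rich spots Adipoq reached 818 CPM in the male NV section, 998 CPM in the female NV section and 489 CPM in the female V section. These spots were 3.56% of spots in the male NV section, 34.7% in the female NV section and 56.1% in the female V section. They held 44.2%, 86.8% and 93.9% of the Adipoq UMIs of those sections, and 5.13%, 61.8% and 84.8% of all UMIs. For Lpl the shares were 15.2%, 80.6% and 93.0%, the lowest of the 10 in the male NV section and female NV section. In the male NV section, Agpat2 (20.2%) and Gpd1 (26.6%) also had smaller shares than the other 7 genes, which ranged from 36.5% to 50.9%.

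By the chosen rule, a gene was adipocyte-restricted where reporter-free parenchyma held under 10% of its adipocyte-rich level in each section, and 0 of the 10 met it, beside 0.166% of 10830 genes. In the male NV section, 7 genes were under 10%, from 3.999% for Car3 to 8.09% for Cidec, while Gpd1 kept 13.4%, Lpl 22.3% and Agpat2 23.1%. In both female sections every gene was above 10%, with Adipoq at 30.4% and 56.9%. Female reporter-free spots had medians of only 1492 (NV) and 1137 (V) UMIs, against 21132 and 20720.5 in adipocyte-rich spots. A shallow spot can hold adipocyte RNA and no reporter UMI, so the rule can miss restricted genes there. The part of depth in these percentages was not tested. Spots with no reporter UMI still held UMIs of all 10 genes in these sections. Cardiac muscle markers were also found in the parenchyma spots of these sections, at 1768 to 2938 CPM against 18.2 CPM in the male V section. Transfer of RNA between spots was not tested.

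The male V section, with few adipocyte transcripts, gave a second reference, added after the data were seen. Against the adipocyte-rich spots of the other 3 sections, its level was 0.160% to 0.327% for Adipoq, 0.148% to 0.249% for Plin1, 0.0431% to 0.0711% for Cfd and 0.184% to 0.405% for Car3. Fabp4 kept 0.524% to 0.838%, Thrsp 0.691% to 1.80%, Gpd1 0.827% to 3.52% and Cidec 1.84% to 3.09%. Agpat2 kept 7.56% to 17.9% and Lpl 17.9% to 27.4%. With this reference, 8 of the 10 genes were under the 10% limit and Lpl and Agpat2 were not, beside 2.35% of 10830 genes. The male V section was the lowest section for all 10 genes, and it also held few cardiac transcripts. Collagen fibroblast markers were at 215 CPM there and 1423 to 1842 CPM elsewhere, and club cell markers at 287 CPM and 2244 to 12764 CPM. A gene under the limit was thus low in that section, which does not show that only adipocytes made it. The part of these other tissues in this count was not tested.

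**Figure D2:**
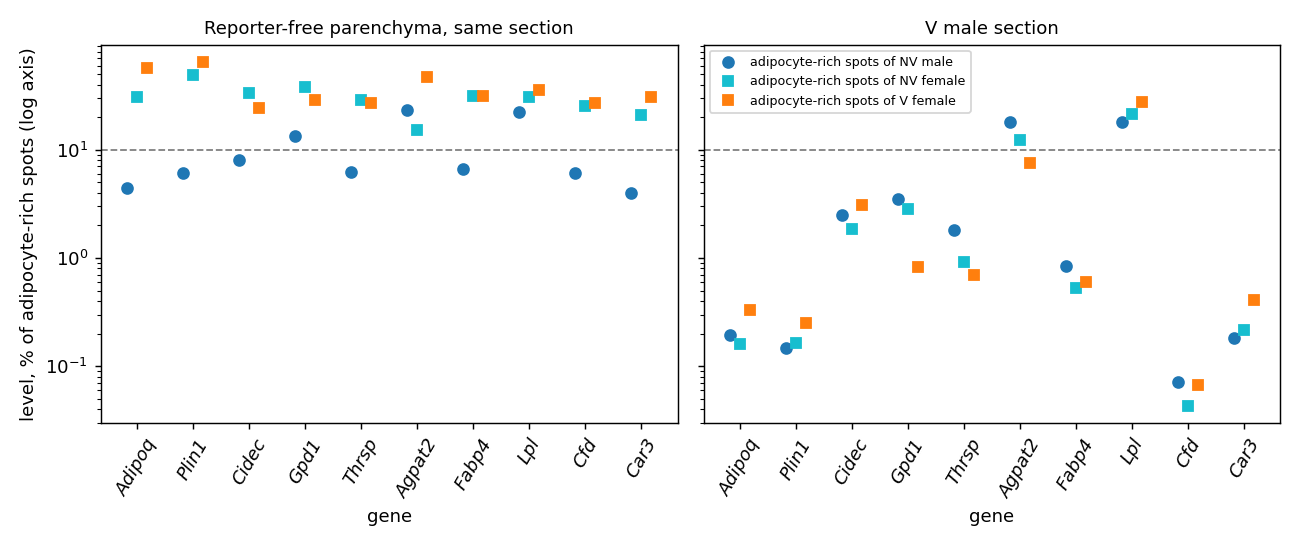
Level of each gene as a percentage of its level in adipocyte-rich spots (log axis), in reporter-free parenchyma of the same section (left) and in the whole male V section (right). Points are the 3 sections with adipocyte-rich spots, and the dashed line is the 10% limit. On the right, all points of Lpl and those of Agpat2 for the NV sections lie above the line, and the other 8 genes lie below it.

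Lpl and Agpat2 were then followed through alveolar and endothelial spots. Reporter-free parenchyma was ranked within each section by markers of alveolar type 2 cells (the surfactant makers), alveolar type 1 cells (the thin gas-exchange lining) or endothelium, and the top 25% of spots (rich) were set against the bottom 25% (poor; edgeR, section as a block, 4 sections). None of the 10 genes passed in any of the 3 comparisons, in which 0.109% of 3657 genes, 0% of 4051 genes and 0.0387% of 2581 genes were called, marker genes left out. A set held 50 spots in the male NV, 7 in the female NV, 284 in the male V and 11 in the female V section. In the female NV sets Lpl had 5 UMIs in type 2 rich and 3 in poor spots. Agpat2 had 0 there in both type 1 and both endothelium sets. The female sections thus add little to these tests. At an unadjusted p under 0.05 there were 182 genes in the type 1 comparison, and DESeq2 called 2, both counts with marker genes included. Medians of the 10 log2 fold changes were -0.29 for type 2, -0.10 for type 1 and -0.39 for endothelium, beside -0.01, 0.01 and -0.0045 over all genes.

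No difference of Lpl with the 3 cell types passed the test. Its log2 fold change was -0.16 ± 0.16 for type 2, -0.40 ± 0.17 for type 1 and -0.17 ± 0.20 for endothelium (SE, 4 sections). For Agpat2 it was 0.13 ± 0.23, -0.11 ± 0.21 and -0.44 ± 0.25. Fabp4, although known from capillaries, gave -0.30 ± 0.19, 0.02 ± 0.18 and -0.31 ± 0.23. The lowest adjusted p among the 10 belonged to Car3, at -1.05 ± 0.25 (edgeR adjusted p = 0.141), -0.76 ± 0.22 (edgeR adjusted p = 0.531) and -1.28 ± 0.29 (edgeR adjusted p = 0.126). When spots with reporter UMIs were kept, a setting added after the data were seen, Car3, Lpl and Fabp4 were called lower in the rich spots of all 3 cell types, at log2 fold changes between -1.34 and -0.41. Over all genes tested in that setting, marker genes included, 1.22% were called lower for type 2, 3.08% for type 1 and 3.03% for endothelium.

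The male V section alone allowed the parenchyma to be read with few adipocyte transcripts, in sets of 284 spots for the top and bottom 25%. It is 1 section, so the values carry exact 95% counting intervals and no test. Lpl was at 248 CPM in the type 2 rich and 260 CPM in the type 2 poor spots, and at 266 CPM and 245 CPM in the endothelium rich and poor spots. Over 7 marker lists the ratio of rich to poor for Lpl ranged from 0.82 (interval 0.72 to 0.94) for type 1 cells to 1.12 (0.98 to 1.29) for macrophages. Agpat2 ranged from 0.83 for endothelium to 1.12 for type 2 cells, and its interval held 1 for each list. The interval of Lpl for type 1 cells lay below 1, and each spot holds several cells.

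Fabp4 and Cidec were read by macrophage markers in the same way. In the male V section, Fabp4 was at 63.5 CPM in the macrophage rich spots (100 UMIs) and 29.9 CPM in the poor spots (50 UMIs), a ratio of 2.12 (1.497 to 3.04). Cidec was at 21.0 and 10.8 CPM (33 and 18 UMIs), a ratio of 1.95 (1.06 to 3.67), and Gpd1 at 10.8 and 5.98 CPM, a ratio of 1.80 (0.78 to 4.41). For the other 6 lists the Fabp4 ratio lay between 0.72 and 1.14. In the male NV section, where reporter-free parenchyma kept adipocyte transcripts, the macrophage ratio was 1.01 (0.74 to 1.37) for Fabp4 and 0.99 (0.47 to 2.19) for Cidec, while for Lpl it was 1.49 (1.11 to 2.03). In the female sections, with 7 and 11 spots per set, the macrophage ratio of Fabp4 was 0.81 (0.34 to 2.21) for NV and 1.09 (0.56 to 2.17) for V, so the male V section was the 1 section of 4 whose Fabp4 interval lay above 1. Alveolar fibroblast, collagen fibroblast and club cell markers gave Fabp4 ratios of 0.72, 1.14 and 1.02 in the male V section.

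**Figure D3:**
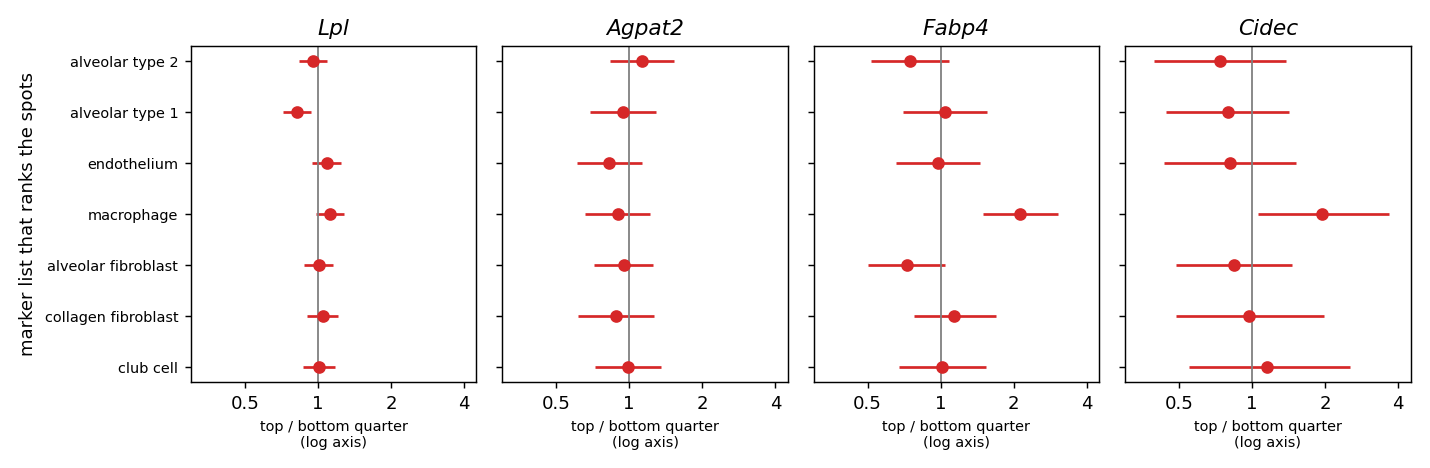
Ratio of the level in the top to that in the bottom 25% of reporter-free parenchyma spots of the male V section (log axis), ranked by each of 7 marker lists, for 4 genes. Bars are exact 95% counting intervals. Fabp4 and Cidec are above 1 for macrophage markers, at 2.12 and 1.95, while over the 7 lists Lpl lies between 0.82 and 1.12 and Agpat2 between 0.83 and 1.12.

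Heart muscle is known to make the lipase Lpl, so its level was also read by cardiac muscle markers. Among spots of the male NV section that were not adipocyte-rich, Lpl was at 900 CPM in the top and 259 CPM in the bottom 25% by cardiac markers, a split added after the data were seen, while Adipoq was at 96.2 and 46.6 CPM. In the female NV section Lpl was at 717 and 309 CPM with Adipoq at 265 and 199 CPM, and in the female V section Lpl was at 442 and 383 CPM with Adipoq at 221 and 158 CPM. The male V section held only 216 cardiac marker UMIs over its 1565 spots, so most of its spots held none. Its bottom 25% were thus spots without such UMIs, taken in spot order, and the split hardly ranks cardiac content there. Lpl was at 237 CPM (221 to 253) in the top and 274 CPM (255 to 294) in the bottom 25%, from which nothing is read. The part of heart muscle in the Lpl level of a section was not tested.

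Set per Adipoq UMI, the adipocyte-rich spots of the female V section had another composition from those of the NV mice. There were 2.21 Gpd1 UMIs per Adipoq UMI (2.16 to 2.25) in the female V section, against 0.310 (0.251 to 0.380) in the male NV section and 0.313 (0.295 to 0.333) in the female NV section. Thrsp was at 3.31 against 0.759 and 1.23, Agpat2 at 1.48 against 0.373 and 0.444, and Fabp4 at 11.3 against 4.80 and 6.29. Cidec was at 0.863 against 0.640 and 0.711, and Cfd at 10.5 against 5.94 and 8.02. Those 6 genes had counting intervals in the female V section that lay above both NV intervals, while the Adipoq level itself was lowest there. A low Adipoq level raises this ratio for any gene whose own level is unchanged. The share of all genes with such intervals was not computed, so the 6 are not set apart from other genes. In CPM of the same spots, 3 of the 6 were above both NV sections, Gpd1 at 1078 against 253 and 313, Thrsp at 1619 against 621 and 1223 and Agpat2 at 721 against 305 and 443. Cidec was the lowest in the female V section by CPM, at 422 against 523 and 710, and Fabp4 (5525 against 3929 and 6277) and Cfd (5119 against 4855 and 8008) lay between the NV sections. Per Adipoq UMI, Lpl was at 1.84 (1.80 to 1.87) against 1.67 (1.47 to 1.90) and 1.15 (1.10 to 1.197), and by CPM it was at 897 against 1368 and 1146. Plin1 per Adipoq UMI was at 0.415 against 0.416 and 0.309, and Car3 at 3.24 against 4.26 and 2.96, with the female V section between or level with the NV mice. Only 1 V section held adipocyte-rich spots, and V was not tested against NV in them. Brown fat genes had a larger part among the reporters that chose the female V spots, as given below.

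**Figure D4:**
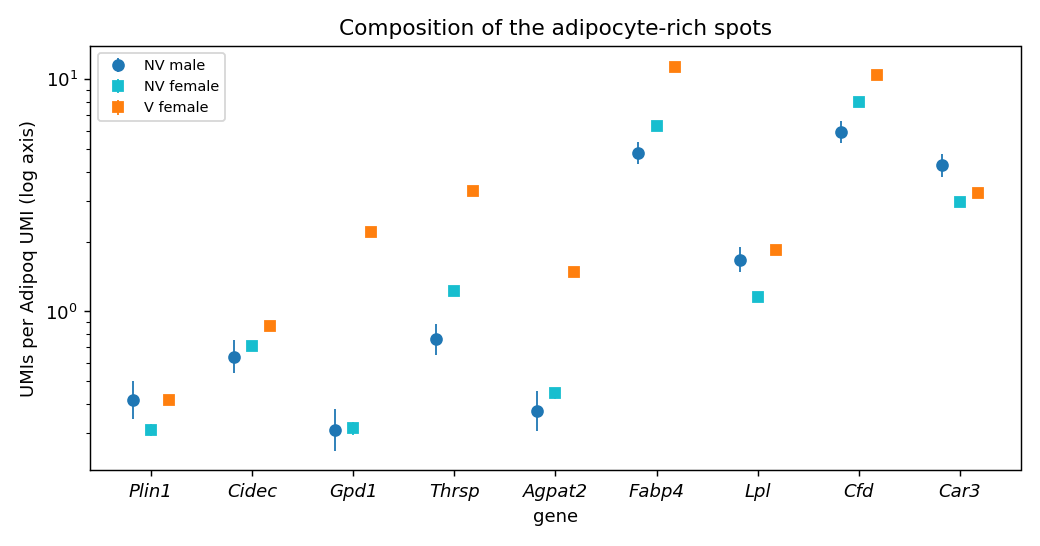
UMIs of each gene per Adipoq UMI in adipocyte-rich spots (log axis), with exact 95% counting intervals as bars, for the 3 sections that held such spots. Gpd1, Thrsp, Agpat2, Fabp4, Cidec and Cfd lie above both NV sections in the female V section, Gpd1 at 2.21 against 0.310 and 0.313, while Plin1 lies at 0.415 beside 0.416 and 0.309.

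The adipocyte-rich spots of the female V section also held brown fat transcripts, among them Ucp1, itself a reporter that chose the spots. Reporters without the brown fat genes were at 1049 CPM there, of 2878 CPM for all reporters. In the adipocyte-rich spots of the male and female NV sections they were at 1140 of 1328 CPM and 1770 of 1983 CPM. Brown fat genes thus had a larger part in choosing the female V spots. Ucp1 was at 859 CPM over the whole female V section, and at 0.107, 1.01 and 0.337 CPM in the male NV section, female NV section and male V section. When the 1152 spots were split into 4 equal parts of 288 by their Ucp1 level, a split added after the data were seen, Gpd1 per Adipoq UMI was 1.45, 1.64, 1.64 and 2.64 from the lowest to the highest part. The Adipoq level moved with the split, at 288 CPM in the lowest and 874 CPM in the highest part. Thrsp was at 2.11, 2.13, 2.56 and 4.03, and Agpat2 at 1.14, 1.21, 1.24 and 1.67. Lpl per Adipoq UMI was at 2.52, 2.35, 1.996 and 1.53, although its level rose from 726 CPM in the lowest to 1341 CPM in the highest part, and Plin1 stayed between 0.406 and 0.451. The part lowest in Ucp1 still held 0.559 Ucp1 UMIs per Adipoq UMI, against 0 and 0.00163 in the adipocyte-rich spots of the male and female NV sections. The sex, the exposure and the kind of fat that a section held cannot be told apart with 1 section of each.

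**Figure D5:**
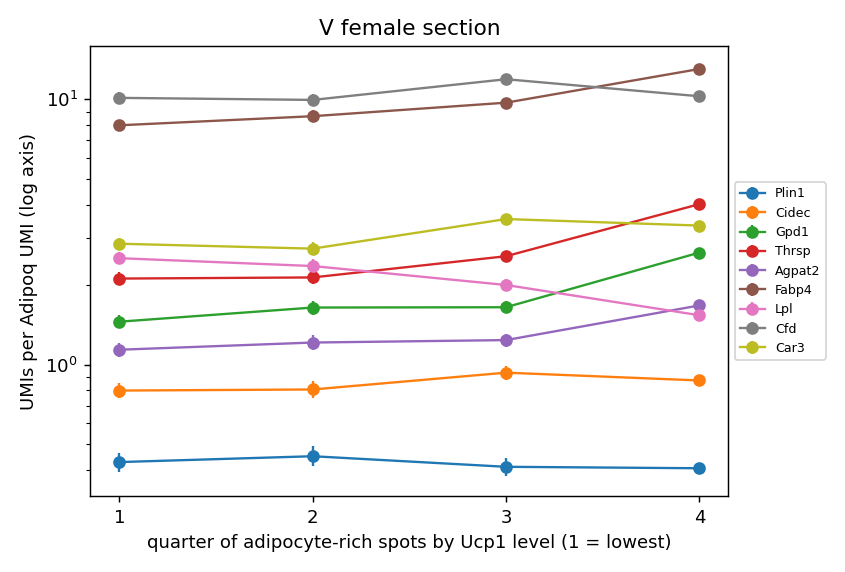
UMIs of 9 genes per Adipoq UMI (log axis) in 4 equal parts of the adipocyte-rich spots of the female V section, ordered by Ucp1 level, 288 spots each, with exact 95% counting intervals. Gpd1 goes from 1.45 to 2.64 and Thrsp from 2.11 to 4.03, while Lpl goes from 2.52 to 1.53 per Adipoq UMI and from 726 to 1341 CPM.

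Other genes of lipid storage were read in the same comparison of adipocyte-rich with reporter-free spots, by lists and with the 4.93% background. Of 8 genes of fatty acid synthesis 7 rose, among them the chain elongase Elovl6 (log2 fold change 2.83), the fatty acid synthase Fasn (2.12) and the desaturase Scd1 (1.69), while Srebf1 was at 1.03 (edgeR adjusted p = 0.0749). Of 9 genes of triglyceride synthesis 5 rose, with Pck1, which feeds glycerol synthesis, at 3.53, and the last acyltransferase Dgat2 at 2.60. Of 5 lipolysis genes 3 rose, the lipases Pnpla2 (1.61), Lipe (2.51) and Mgll (1.22). Of 9 droplet coat genes 3 rose, Plin4 (3.11), Bscl2 (1.76) and Cidea, and Cidea was itself a reporter that chose the spots. Of 5 adipocyte transcription factors 2 rose, Pparg at 2.90 and Cebpa at 1.72.

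Of 8 partners of Lpl and genes of fatty acid uptake 1 rose, the fatty acid transporter Slc27a1 at 1.88. Gpihbp1, which holds the lipase on capillary endothelium, had a log2 fold change of -0.08 ± 0.21 (SE, edgeR adjusted p = 0.905), and the fatty acid receptor Cd36 0.13 ± 0.15 (edgeR adjusted p = 0.741). In whole sections Gpihbp1 was at 170 CPM in the male NV section, 227 CPM in the female NV section, 352 CPM in the male V section and 224 CPM in the female V section. Median log2 fold changes were 2.10 for fatty acid synthesis, 1.999 for triglyceride synthesis, 1.61 for lipolysis, 1.07 for droplet coat, 1.72 for transcription factors and 0.60 for the Lpl partners. None of these 6 lists had a gene called between V and NV, over whole sections or in reporter-free parenchyma.

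Spots that were high in one of the genes were described by the genes whose spot pattern was most like it, as a mean Pearson r over 473 to 2053 spots within a section. These spots share a library and neighbouring tissue, so r is a description. For Adipoq the nearest were Retn (resistin, itself a reporter; r = 0.56, 3 sections), the interferon-induced gene Ifi27l2a (0.54) and Fasn (0.54), and for Plin1 they were Ifi27l2a (0.47), Cyp2e1 (0.46) and Retn (0.46). For Cfd and Car3, also over 3 sections, they were Ifi27l2a at 0.62 and 0.64, Retn at 0.62 and 0.61 and Scd1 at 0.62 and 0.62. Over 4 sections, Thrsp, Fabp4, Cidec, Agpat2 and Gpd1 had Fasn among their nearest 3, at 0.43, 0.47, 0.39, 0.35 and 0.35. Lpl was nearest to Dbi, an acyl-CoA binding protein (0.35), the mitochondrial gene mt-Co3 (0.35) and Ifi27l2a (0.34). In the male V section the r of these 6 genes with their nearest 3 lay between -0.01 and 0.09.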

How the data were processed

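Cryosections of 4 mouse lungs (2 V, 2 NV) were profiled with Visium. The authors aligned reads to the 10x mm10 reference with Space Ranger and deposited raw UMI counts for each gene in each spot. Seurat 4.0.3 is also named in their processing notes, and their later scaling is not part of these counts. No spot was removed. Counts were scaled to CPM of all UMIs of a section or spot class, without TMM, or summed per section and class for tests. Groups and sexes came from the labels, and spots were not treated as replicates.

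The 10 genes and all marker and pathway lists were chosen with earlier results of these data known. Genes named beyond the 10 were those of the pathway lists and, for each of the 10, the 3 genes with the highest mean r, among genes with at least 100 UMIs per section. Tests of sums used the quasi-likelihood test of edgeR 4.0.16 (R 4.3.3) after TMM scaling and filterByExpr. Genes were called at an adjusted p under 0.05 (Benjamini-Hochberg, all genes tested) with a log2 fold change of more than 0.25 either way. The study's test over spots was not used. The non-legacy quasi-likelihood method was taken after the legacy one called unchanged genes in simulated data, and each comparison was tested on simulated data. The legacy method called 28 unchanged genes in reporter-free parenchyma and 5 for adipocyte-rich spots, where the chosen one called 0. For type 2, type 1 and endothelium the chosen method called 3, 1 and 4 unchanged genes, and the legacy method 2, 1 and 2. For V against NV the chosen method recovered 21.5% of genes given a log2 fold change of 2 in size over whole sections. In reporter-free parenchyma it recovered 0%, against 46.5% by the legacy method and 12.5% by DESeq2. A lack of calls between V and NV thus does not show equal levels. The Wald test and the size factors of DESeq2 1.42.0 were alternatives, with no low count filter, thinning to 3000 UMIs per spot, other spot limits, each section left out and the replicate number as a block. With 2 mice per group, p-values measure the spread between these sections, which includes the tissue each holds. Replicate numbers follow sex, with 2 pairs, and deviations of same-numbered sections correlated at 0.324 over whole sections and 0.0799 in reporter-free parenchyma.

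Intervals are exact 95% Poisson intervals for levels and conditional binomial ones for ratios, and cover counting error only. Gene positions came from GENCODE vM21 and promoters from RefSeq, both on GRCm38. Spot positions and images were not analysed here. Python 3.11.15, numpy 2.4.6, scipy 1.17.1, pandas 2.3.3 and matplotlib 3.10.9 were used.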

Additional observations from a re-analysis of the deposited data

Results flagged for a closer look

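For 4 of the 10 genes, the V over NV difference of whole-section levels had opposite signs in the sexes, each sex having 1 mouse per group. The share of all genes with opposite signs was not computed, so this count does not set the 10 apart. Gpd1 had a log2 ratio of -2.45 in males and 2.12 in females, Thrsp -2.79 and 0.75, Agpat2 -0.5 and 1.0, and Fabp4 -4.03 and 0.14. The difference between the sexes was not tested, since no mouse of a sex and group has a replicate. The adipocyte reporters moved with it, at 211 CPM in the male NV section against 47.7 CPM in the male V section and at 1417 CPM in the female NV section against 2561 CPM in the female V section, and their part in it was not tested. Without the brown fat genes among them, the reporters were at 144 and 12.4 CPM in the male NV and V sections and at 1259 and 939 CPM in the female NV and V sections, so their direction in females turned. Groups of 2 are too small for a check of single outlying sections.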

How the results depend on the processing

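Leaving out 1 section gave between 0 and 649 called genes for V against NV over whole sections, 0 to 3 in reporter-free parenchyma, 0 in each case for adipocyte-rich spots, 0 to 22 for alveolar type 2, 0 to 8 for alveolar type 1 and 0 to 10 for endothelium. The 649 calls were made without the female V section and the 0 calls for adipocyte-rich spots without any 1 of the 3 sections. The replicate block called 0 genes in both V against NV comparisons, and its log2 fold change for Gpd1 over whole sections was -0.17; the numbers were not shown to pair the sections, and no call changed. DESeq2's Wald test called 8 genes over whole sections, 1 in reporter-free parenchyma and 0 for endothelium. The legacy quasi-likelihood method called 65 genes in reporter-free parenchyma, 1007 for adipocyte-rich spots, and 34, 30 and 19 for type 2, type 1 and endothelium. Without a low count filter there were 5 calls in reporter-free parenchyma, 899 for adipocyte-rich spots and 0 for each cell type. Reporters without brown fat genes gave 1071 calls, the top against the bottom 25% by reporter level 974, and at least 20 reporter UMIs 0, from 556 as reported with reporter genes included. DESeq2 size factors gave 18 calls for type 2 and 4 for type 1 (10 and 2 as reported, markers included), and the top against the bottom 50% of spots 22 and 4. Keeping all parenchyma spots gave 333, 727 and 637 calls for type 2, type 1 and endothelium, from 10, 2 and 7. The number of the 10 genes under the restriction limit, 0 as reported, was 8 with the male V section as reference at limits of 10% and 5% and 9 at 20%. The share over all genes was taken at the 10% limit only. The causes were not tested.

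Among log2 fold changes of named genes, leaving out a section gave -8.11 to 1.31 for Adipoq, -4.08 to 3.42 for Gpd1, -2.03 to 2.27 for Agpat2 and -1.59 to 0.36 for Lpl over whole sections, and -2.60 to 0.066 for Cidec and -0.38 to 2.21 for Agpat2 in reporter-free parenchyma. Whole-section ranges also changed sign for Plin1 (-8.16 to 1.16), Car3 (-7.68 to 1.09) and Cfd (-9.95 to 2.09). The same held for Cidec (-4.64 to 1.51), Thrsp (-5.525 to 3.31) and Fabp4 (-6.41 to 2.31). In reporter-free parenchyma, Lpl turned to 0.091 with thinned spots and 0.029 with all parenchyma spots. For type 2, Agpat2 turned to -0.31 with all parenchyma spots and Fabp4 to 0.16 with thinned spots. For type 1, Fabp4 turned to -0.024 with DESeq2 size factors, -0.088 with the top against the bottom 50% and -0.54 with all parenchyma spots, and ranged from -0.085 to 0.15 with a section left out. With DESeq2 size factors, Adipoq and Plin1 lost their call in adipocyte-rich spots (edgeR adjusted p = 0.0521 and 0.0592). All 10 genes lost it with at least 20 reporter UMIs and with any 1 section left out. Keeping all parenchyma spots brought calls to Fabp4, Lpl and Car3 in all 3 cell types and to Agpat2 for endothelium (-0.44), and the legacy method to Car3 for endothelium (edgeR adjusted p = 0.0400). Thinned adipocyte-rich spots could not be fitted, since 1 section remained. Over whole sections, the other alternatives kept direction and call for Adipoq, Agpat2 and Lpl, and for Gpd1 except with the replicate block. In the other comparisons they did so for the genes given in this paragraph. Shallow reporter-free spots of the females limit every value that rests on them.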
